A study of Mus musculus with 35 samples.

Results

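Monocytes circulate as classical and patrolling subsets, and 8 of the 53379 genes in the count table were followed as their markers. They were named by symbol, and the rule used no measured value, though they were chosen with earlier results of these data known. F13a1, Chil3 and Vcan mark classical monocytes, and Nr4a1, Cd300e, Ace, Treml4 and Spn mark patrolling monocytes. All 8 were found in the table by their Ensembl identifiers. Their levels are given as CPM, the count of a gene scaled to the same total in every library.

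The libraries came from C57BL/6 mice with T110299 tumors growing in the pancreas, a line derived from a tumor of a genetically engineered mouse with Ptf1a-Cre, which acts in the pancreas. By the study's design, 4 mice received poly(I:C)c, which is 50 µg of the double-stranded RNA poly(I:C) complexed with polyethylenimine and given i.v. on days 18 and 20, and 4 served as controls. The labels call the controls untreated, as does the study's account of this experiment, while its general methods name glucose as the control injection. CD11b+ cells of spleen and tumor were sorted into polymorphonuclear myeloid-derived suppressor cells (PMN-MDSC, Ly6C-low Ly6G+) and monocytic ones (M-MDSC, Ly6C-high Ly6G-), and untreated bulk tumor was lysed whole. There were 4 libraries for each group, apart from 3 for treated spleen PMN-MDSC and 3 for treated tumor M-MDSC. All mice bore the same tumor line, and no tumor-free animals were among the groups. The tumors were minced and broken up mechanically with a tumor dissociation kit, while the spleens were passed through a strainer. Compartment and tissue preparation therefore cannot be told apart.

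Classical monocytes leave the bone marrow with high Ly6C and CCR2, enter inflamed tissue and turn into macrophages and dendritic cells there. Patrolling monocytes descend from them in the blood, lose Ly6C, depend on the nuclear receptor Nr4a1 and survey the vessel wall. As a rule they lie outside a Ly6C-high gate, so their genes in M-MDSC were measured in cells sorted for the opposite phenotype.

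Totals ranged from 793070 to 4357105 counts over the 30 MDSC libraries, and 3 counts were taken as the smallest detectable level. The total of the bulk tumor libraries was 3771590 to 8886115 counts. Several libraries stood apart from what their labels name. PMN-MDSC from tumors of untreated mice held 0 to 9.19 CPM of Ly6g, the gene behind the sorting marker, against 34.5 to 84.7 CPM in spleen. The summed CPM of 8 macrophage markers was 10156 to 13647 in these tumor libraries and 529 to 1728 in spleen, whereas the summed CPM of 10 neutrophil markers was 1069 to 4521 in tumor and 22674 to 41100.0 in spleen. Among M-MDSC from tumors of treated mice, the library listed second held 2.98 CPM of Ly6c2, against 622 and 443 CPM in the remaining libraries of its group, and 29637 CPM of the macrophage markers. Results that rest on it are given with and without it. In spleen, 7 monocyte markers summed to 3701 to 4251 CPM in untreated M-MDSC and 620.3 to 1325 CPM in untreated PMN-MDSC. PMN-MDSC from tumors go by their label below.

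The genes were located on GRCm38. In the classical group, F13a1 (coagulation factor XIII A subunit) lies at chr13:36867178-37050244, minus strand. Vcan (versican, a matrix proteoglycan) lies at chr13:89655312-89742509, minus strand, and Chil3 (Ym1, a secreted chitinase-like protein that neutrophils also store) at chr3:106147554-106167564, minus strand. In the patrolling group, Nr4a1 (the orphan nuclear receptor Nur77) lies at chr15:101254269-101274795, + strand, and Cd300e (an activating receptor of the CD300 family) at chr11:115051917-115062177, minus strand. Ace (angiotensin-converting enzyme) lies at chr11:105967945-105989964, + strand, Treml4 (a receptor of the TREM family) at chr17:48264295-48275360, + strand, and Spn (CD43, a cell surface sialoglycoprotein) at chr7:127132232-127137823, minus strand. Antisense genes overlap F13a1, Vcan and Ace, and fragments were counted by strand. Of the 50-base stretches of the Chil3 transcripts, 26.9% also occur in transcripts of other genes, most often of its paralog Chil4, which held at most 2.90 CPM in any library. For Chil3, the split of fragments between such copies is therefore uncertain, while the share was 0.209% for F13a1 and 0 for the remaining members.

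Promoters are shown for Nr4a1, the patrolling member that was higher in tumor in both fractions of untreated mice, and Cd300e, the member called in the most treatment comparisons. The windows run from 250 bases before to 50 bases after the RefSeq start on GRCm38.p6. For Nr4a1 (chr15:101266596-101266895, + strand), capitals mark the 4 places where the half-site of the cAMP response element, TGACG, lies on the opposite strand. For Cd300e (chr11:115061990-115062289, minus strand), capitals mark the 1 match to the gamma-activated site, TTCNNNGAA.
Nr4a1: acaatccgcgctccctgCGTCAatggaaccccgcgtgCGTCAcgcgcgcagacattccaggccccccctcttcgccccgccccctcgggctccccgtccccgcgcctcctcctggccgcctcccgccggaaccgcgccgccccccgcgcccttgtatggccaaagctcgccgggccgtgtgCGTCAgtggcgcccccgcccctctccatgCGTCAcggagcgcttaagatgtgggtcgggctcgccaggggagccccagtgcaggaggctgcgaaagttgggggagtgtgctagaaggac
Cd300e: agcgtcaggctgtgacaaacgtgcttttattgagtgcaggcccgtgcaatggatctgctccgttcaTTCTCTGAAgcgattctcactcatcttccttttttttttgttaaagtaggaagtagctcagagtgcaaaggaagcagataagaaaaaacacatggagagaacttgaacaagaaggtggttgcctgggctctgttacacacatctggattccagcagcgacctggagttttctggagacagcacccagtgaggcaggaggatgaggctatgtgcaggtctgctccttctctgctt
Both strands of 10 windows of the 8 members were searched, F13a1 and Ace having 2 each. TGACG was in the windows of Nr4a1, Cd300e and F13a1 and in 20.8% of 32851 promoter windows of the same length. TTCNNNGAA was in those of Cd300e and Chil3 and in 8.30% of all, GAGGAAG (PU.1 core) in those of F13a1 and Ace and in 13.6%, GCGGGGGCG (EGR site) in that of Nr4a1 and in 2.91%, and GGAANNGAAA (ETS-IRF composite) in that of Spn and in 2.72%. No member's window held GAAANNGAAA (interferon-stimulated response element, 3.44% of all), TGACGTCA (full cAMP response element, which contains TGACG, 1.79%), TGANTCA (AP-1, 7.81%), AAAGGTCA (NBRE, 1.51%), CCACACCC (KLF, 3.56%), TTGCNNAA (C/EBP, 10.8%) or a CArG box (1.63%). These are matches of letters in short windows and were not read as binding sites.

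**Figure D1:**
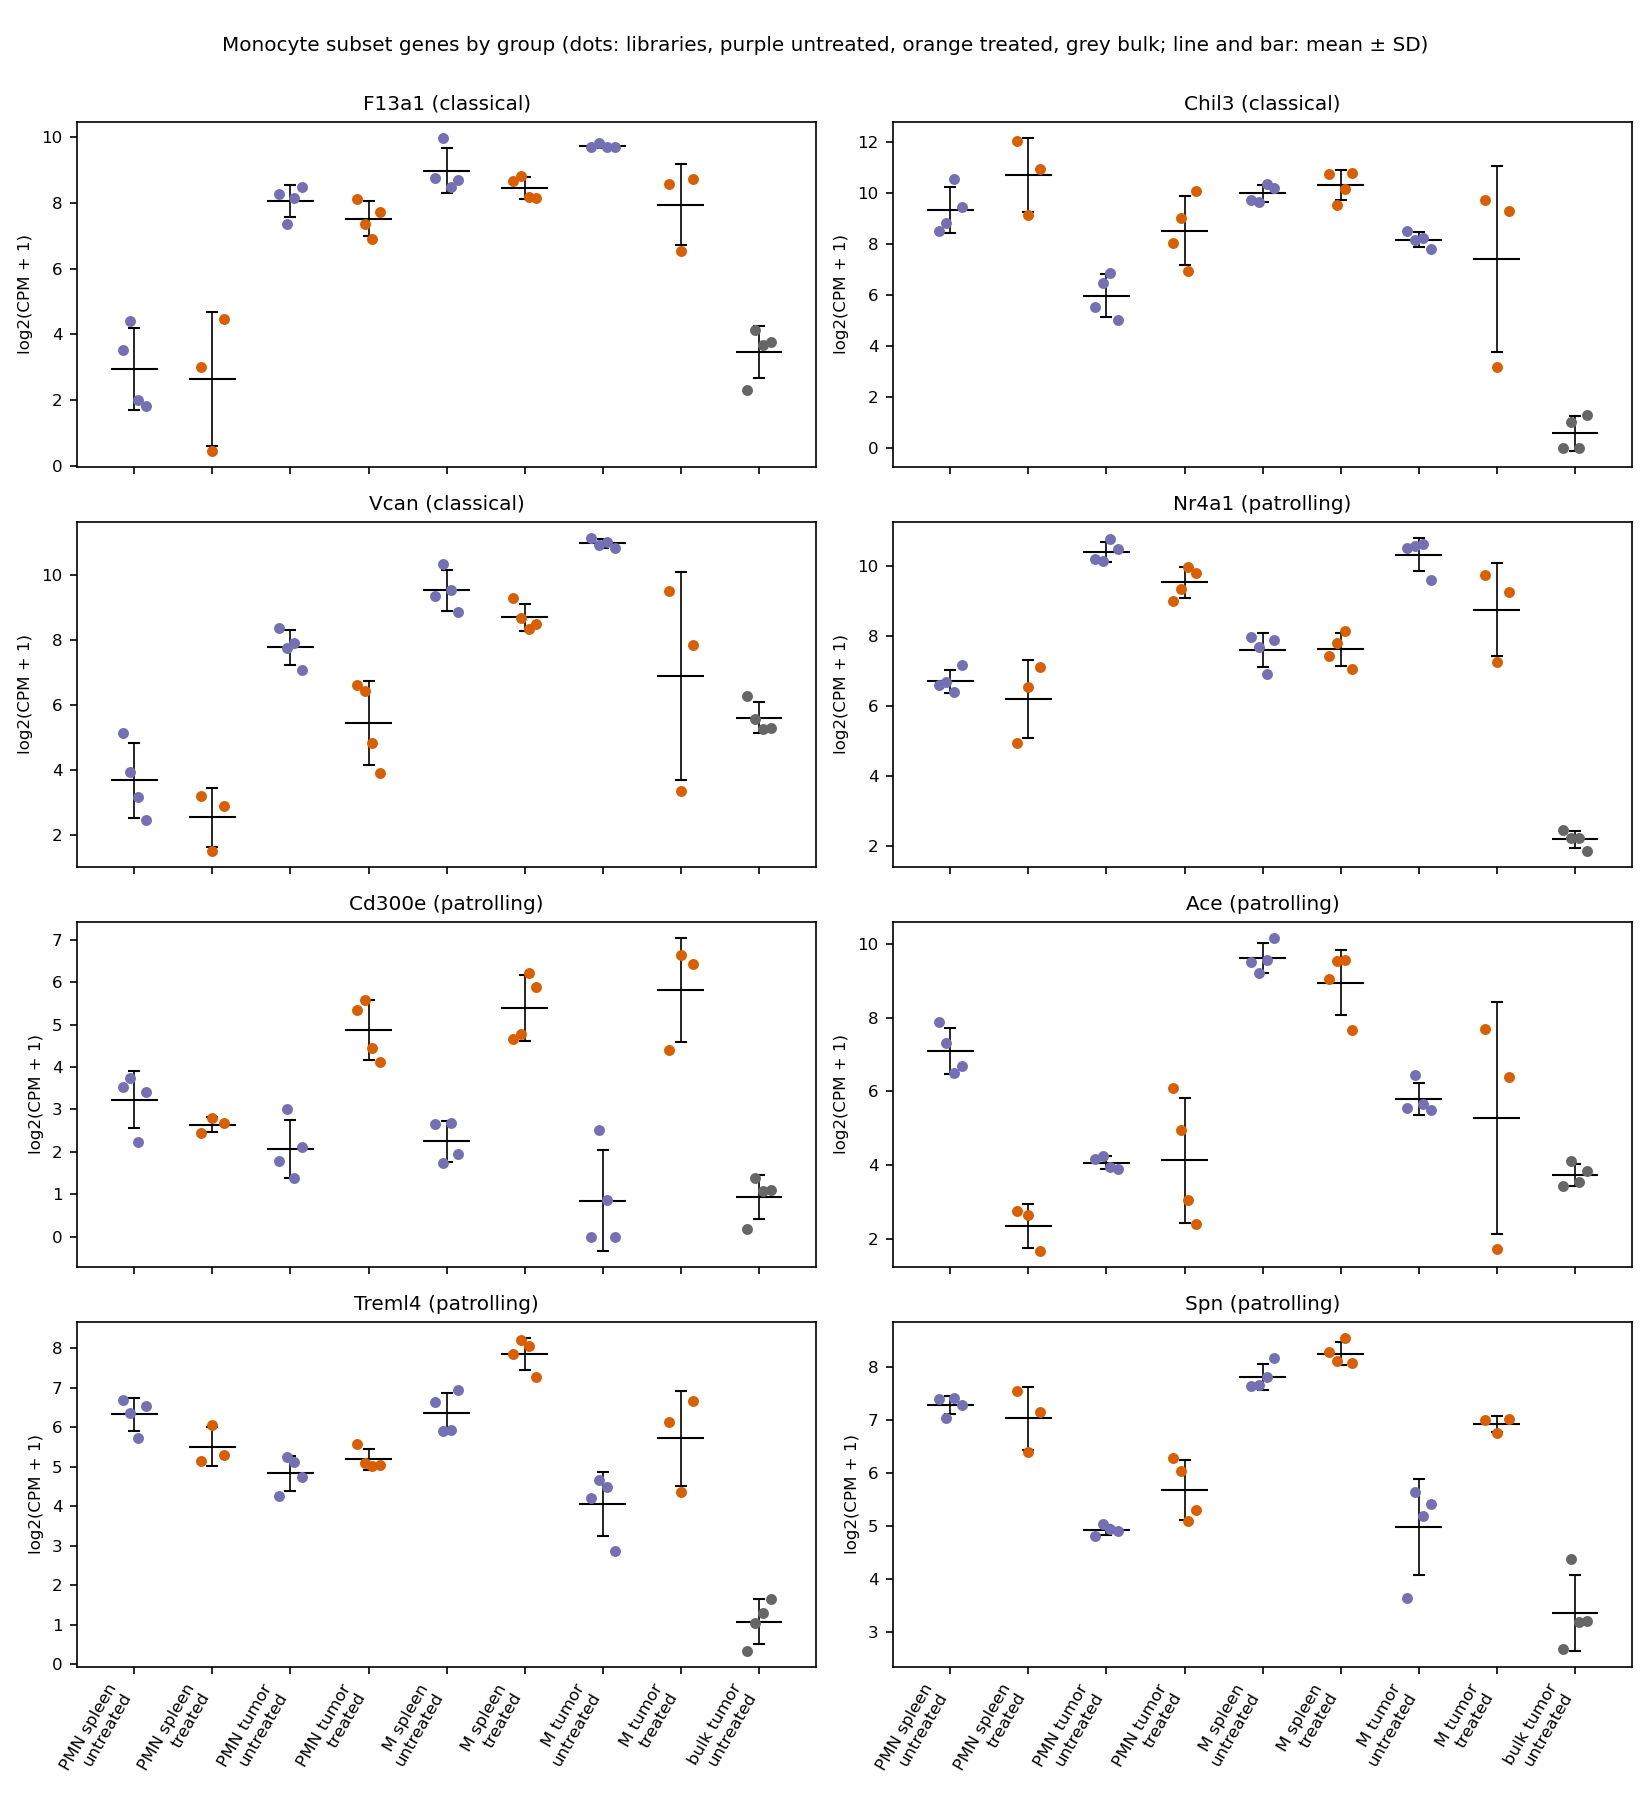
Level of each gene as log2(CPM + 1) (vertical axis) in the 9 groups (horizontal axis); dots are libraries, the line is the mean and the bar 1 SD. Among sorted cells F13a1 and Vcan have their lowest means in PMN-MDSC from spleen and Nr4a1 its 4 highest means in the tumor groups, and Cd300e sits higher in the 3 treated groups other than PMN-MDSC from spleen than in any untreated group.

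M-MDSC were first set against PMN-MDSC of the same organ and treatment, which asks how far the markers follow the sort. In spleens of untreated mice, F13a1, Vcan and Ace were higher in M-MDSC, so that 3 of 7 tested members were called at an adjusted p under 0.05, all higher. Over all 8579 genes tested, 64.4% were called. Cd300e averaged fewer than 25 counts in these libraries and was not tested. The M-MDSC libraries of untreated spleen also held 4097 to 10326 CPM of the neutrophil markers, against 22674 to 41100.0 CPM in PMN-MDSC. In bulk populations, more cells of a type and more RNA per cell cannot be told apart.

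F13a1 stood at 10.6, 20.4, 3.05 and 2.57 CPM in the 4 PMN-MDSC libraries and at 435, 1013, 359 and 413 CPM in the 4 M-MDSC libraries of untreated spleen. Every M-MDSC library was far above every PMN-MDSC library, with a log2 fold change of 5.61 ± 0.67 (SE; edgeR adjusted p = 8.88e-05). The PMN-MDSC libraries held 98 counts of F13a1 in all, under a mean of 25, so the gene was tested here, and between tumor and spleen PMN-MDSC, through the group in which it was high. Vcan showed the same separation, with 34.5, 14.4, 8.13 and 4.50 CPM in PMN-MDSC and 657, 1311, 745 and 465 CPM in M-MDSC. Its log2 fold change was 5.32 ± 0.61 (SE; edgeR adjusted p = 7.20e-05). Chil3 did not separate the fractions, since 369, 459, 1504 and 711 CPM in PMN-MDSC overlapped 867, 811, 1323 and 1189 CPM in M-MDSC (log2 fold change 0.08 ± 0.40 SE, edgeR adjusted p = 0.877).

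Of the patrolling members, Ace followed the sort. It stood at 235, 158, 88.8 and 103 CPM in PMN-MDSC and 735, 594, 762 and 1154 CPM in M-MDSC of untreated spleen, without overlap (log2 fold change 2.10 ± 0.31 SE, edgeR adjusted p = 0.000331). Treml4 (52.2 to 102 against 58.5 to 122 CPM) and Nr4a1 (83.7 to 143 against 119 to 252 CPM) overlapped between the fractions. Beside Nr4a1, 7 of 8 tested immediate early genes (Fos, Fosb, Jun, Junb, Egr1, Ier2 and Dusp1) were lower in M-MDSC, with a median log2 fold change of −2.69. For Spn the 4 M-MDSC libraries (197, 199.7, 222 and 286 CPM) lay above the 4 PMN-MDSC libraries (168, 130.5, 170.4 and 153 CPM), yet the scaled difference was 0.16 ± 0.14 (SE; edgeR adjusted p = 0.331) on the log2 scale. With no count minimum, Cd300e (lower in M-MDSC, 0.000385) and Nr4a1 (0.0178) were called too. Without M-MDSC library 3, Nr4a1 was called as well (log2 fold change 0.74, edgeR adjusted p = 0.0127).

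In spleens of treated mice, 5 of 8 members were called, all higher in M-MDSC (61.2% of 8153 genes called). These were F13a1 (log2 fold change 4.66 ± 0.82 SE, edgeR adjusted p = 0.00173), Vcan (5.77 ± 0.48 SE, edgeR adjusted p = 8.71e-05), Ace (6.46 ± 0.65 SE, edgeR adjusted p = 0.000145), Cd300e (2.52 ± 0.49 SE, edgeR adjusted p = 0.00260) and Treml4 (1.76 ± 0.35 SE, edgeR adjusted p = 0.00291). None of these 5 overlapped between the fractions. The PMN-MDSC libraries, 3 in number, held 71 counts of F13a1, 36 of Vcan, 29 of Ace and 38 of Cd300e in all, so these 4 genes reached the mean of 25 counts only through the M-MDSC libraries in which they were high. Chil3 (−1.27 ± 0.57 SE, edgeR adjusted p = 0.0826) and Spn (0.63 ± 0.26 SE, edgeR adjusted p = 0.0646) were not called in the fit over all libraries, though DESeq2 called Chil3 (0.0316) and edgeR with no count minimum Spn (0.0431). Each was called once a single PMN-MDSC library was left out, Chil3 without library 2 (log2 fold change −1.74, edgeR adjusted p = 0.0128) and Spn without library 1 (log2 fold change 0.84, adjusted p 0.0217).

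In untreated tumors, 4 of 7 tested members were called and again all were higher in M-MDSC (13.0% of 7623 genes called). The 3 classical genes were among them, F13a1 with a log2 fold change of 1.58 ± 0.20 (SE; edgeR adjusted p = 0.000333), Chil3 with 2.02 ± 0.35 (SE; edgeR adjusted p = 0.00384) and Vcan with 3.10 ± 0.24 (SE; edgeR adjusted p = 2.16e-05). Ace was the fourth (1.80 ± 0.25 SE, edgeR adjusted p = 0.000593). Nr4a1 (−0.09), Spn (0.15) and Treml4 (−0.70) were not called and overlapped. When all 8 MDSC groups shared 1 estimate of the spread, the call held for Vcan alone of these 4.

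In tumors of treated mice, edgeR called 0 of 8 members between M-MDSC and PMN-MDSC (0.369% of 8955 genes called). At an unadjusted p under 0.05 there was 1 member of 8, beside 1139 of 8955 genes tested, a similar share. It was Spn, with 127, 106 and 129 CPM in M-MDSC and 76.4, 64.9, 33.3 and 38.3 CPM in PMN-MDSC. DESeq2 called 1 member, Spn (adjusted p = 0.0165), the fit with no count minimum Spn (0.00140) and Cd300e (0.0125), and that over all 8 groups Spn (0.0193) and Vcan (0.0498). Without the second M-MDSC library, edgeR again called 0 members, with 0.0231% of 8676 genes called.

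**Figure D2:**
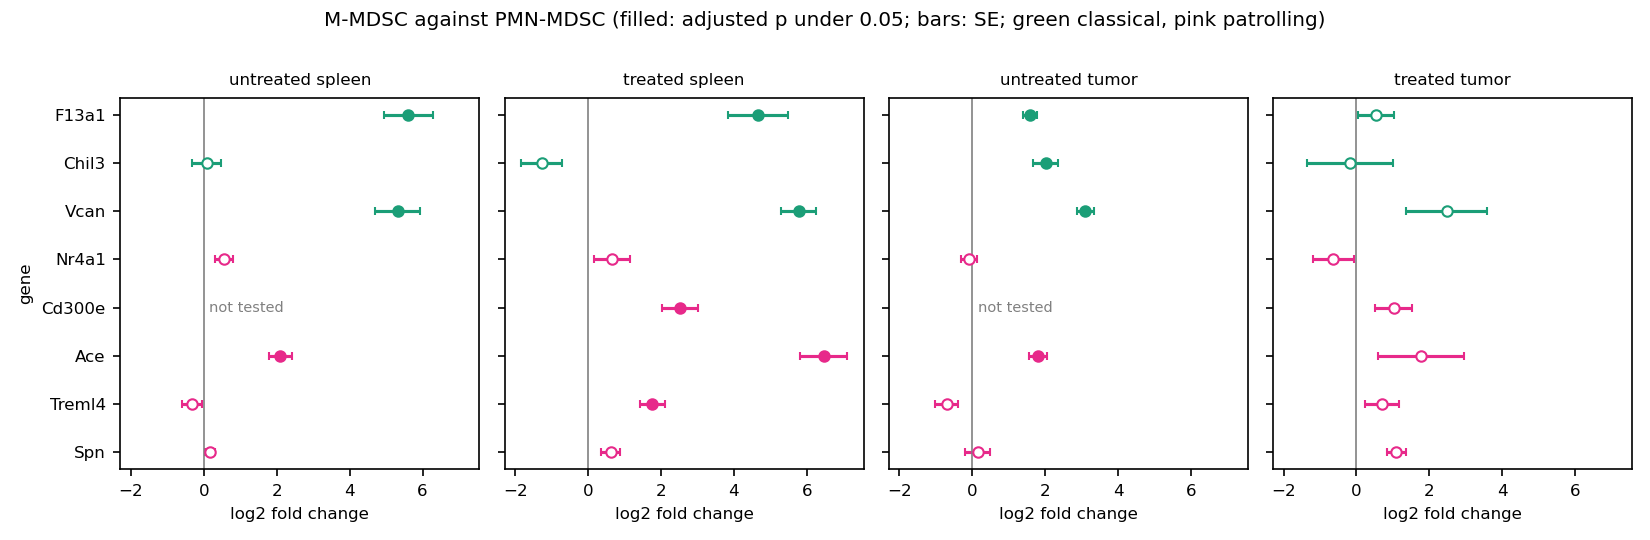
Log2 fold change of M-MDSC against PMN-MDSC (horizontal axis) for each gene (vertical axis) in 4 settings; points are edgeR estimates, bars 1 SE, filled points have an adjusted p under 0.05. All filled points lie to the right of 0, and the panel for treated tumor holds no filled point.

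Of 8 further genes of classical monocytes, 7 were tested in untreated spleen. Among those called, Ly6c2, Ccr2, Fn1 and Plac8 were higher in M-MDSC and Hp and Mgst1 lower (median log2 fold change 0.79, against 0.08 over all genes tested). Of 12 further genes of patrolling monocytes, 11 were tested there, with 4 higher (Cx3cr1, Adgre4, Pou2f2 and Gngt2) and 3 lower (Itgal, Klf2 and Dusp5; median −0.32).

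Sorted cells of the tumor were next compared with those of the spleen. In both fractions of untreated mice, F13a1, Vcan and Nr4a1 were higher in tumor, and Chil3, Ace, Treml4 and Spn were lower. The direction therefore divided neither class as a whole, since Chil3 moved apart from the 2 remaining classical genes and Nr4a1 apart from the tested patrolling members. For PMN-MDSC, 7 of 7 tested members were called (59.1% of 7971 genes called), and for M-MDSC 7 of 7 (28.4% of 8298). These comparisons use the same spleen or tumor libraries as those between the fractions and with treatment.

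F13a1 stood at 306, 163, 281 and 354 CPM in untreated tumor PMN-MDSC, against at most 20.4 CPM in spleen (log2 fold change 4.80 ± 0.59 SE, edgeR adjusted p = 8.39e-05). Vcan stood at 331, 217, 239.8 and 133 CPM there, likewise far above its spleen libraries (3.76 ± 0.53 SE, edgeR adjusted p = 0.000192). Neither gene overlapped between the compartments. In M-MDSC, Vcan was 2278, 1942, 2086 and 1823 CPM in tumor and higher than in every spleen library (1.61 ± 0.27 SE, edgeR adjusted p = 0.000977). F13a1 was 837, 909.8, 831 and 825 CPM in tumor M-MDSC, where the highest spleen library lay above all of them, and its log2 fold change was 0.87 ± 0.30 (SE; edgeR adjusted p = 0.0482). That call was lost in 7 of 8 fits that left out 1 library, with an adjusted p of 0.0856 to 0.141, and held only without the highest spleen library. When all 8 MDSC groups shared 1 estimate of the spread, the calls of Vcan (adjusted p = 0.0951), F13a1 (0.274) and Chil3 (0.154) in M-MDSC were lost, and RLE scaling also ended that of F13a1 (0.0524).

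The summed CPM of 5 fibroblast markers was 26.1 to 47.7 in untreated tumor PMN-MDSC and 1.26 to 32.3 in tumor M-MDSC, against 833 to 1088 in bulk tumor, which itself held 77.3, 46.7, 37.2 and 38.7 CPM of Vcan. Vcan was thus lower in bulk tumor than in each untreated sorted tumor library. Of 5 platelet and megakaryocyte markers, Pf4 was the abundant one, at 37.4 to 63.1 CPM in tumor PMN-MDSC, 7.57 to 23.02 in tumor M-MDSC and at most 0.498 in untreated spleen, while Gp9 and Gp1bb were at 0 in both untreated tumor groups. The summed CPM of 4 epithelial tumor cell markers was 89.5 to 617 in tumor PMN-MDSC against 0 to 1.49 in spleen. It was 13.7 to 234 in tumor M-MDSC against 0.527 to 8.28 in spleen, and bulk tumor held 4014 to 5921 CPM. The macrophage markers were also higher in tumor, at 3463 to 8514 CPM in untreated tumor M-MDSC against 860.4 to 1109.5 in spleen M-MDSC, and at 10156 to 13647 against 529 to 1728 CPM in PMN-MDSC. The part of these cell types in the levels of F13a1 and Vcan was not tested.

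Chil3 went the other way. In PMN-MDSC it stood at 45.5, 88.9, 116 and 32.2 CPM in tumor, below every spleen library (−3.55 ± 0.52 SE, edgeR adjusted p = 0.000255). In M-MDSC it stood at 366, 288, 303 and 224 CPM in tumor, also below every spleen library (−1.56 ± 0.19 SE, edgeR adjusted p = 7.67e-05), a call that was lost in the fit over all 8 groups. Bulk tumor held 0, 1.06, 0 and 1.49 CPM. The neutrophil markers were also lower in tumor in both fractions, summing to 247 to 788 CPM in tumor M-MDSC and 4097 to 10326 CPM in spleen M-MDSC. Their part in the level of Chil3 was not tested.

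Of the 4 patrolling members tested in untreated mice, Nr4a1 was the one higher in tumor. In untreated PMN-MDSC it stood at 95.2, 102, 83.7 and 143 CPM in spleen and 1175, 1136, 1738 and 1442 CPM in tumor (3.56 ± 0.24 SE, edgeR adjusted p = 3.07e-06). In untreated M-MDSC it stood at 252, 203, 119 and 236 CPM in spleen and 1456, 1521, 1567 and 778 CPM in tumor (2.97 ± 0.27 SE, edgeR adjusted p = 7.82e-06). Bulk tumor, which was lysed without dissociation, held 4.49, 3.71, 3.71 and 2.63 CPM of Nr4a1. The 7 monocyte markers summed to 65.0 to 124 CPM in bulk tumor and 3259 to 3914 CPM in untreated tumor M-MDSC. Bulk and sorted libraries thus differ in cell content as well as in preparation. Of 12 relatives and immediate early genes (Nr4a2, Nr4a3, Fos, Fosb, Jun, Junb, Egr1, Egr2, Egr3, Atf3, Ier2 and Dusp1), 10 were called in PMN-MDSC and 12 in M-MDSC, all higher in tumor. Their median log2 fold changes were 4.05 and 5.30, against 0.01 and 0.02 over all genes tested. Fos, for example, stood at 34.3, 108, 34.3 and 21.9 CPM in spleen M-MDSC and 2284, 2064, 2725 and 3167 CPM in tumor M-MDSC. The summed CPM of the 12 genes was 8560.3 to 11996 in tumor M-MDSC and 226 to 257 in bulk tumor. The parts of tissue preparation and of cell content in these levels were not tested.

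The remaining tested patrolling members were lower in tumor. Ace stood at 16.98, 17.9, 14.4 and 13.8 CPM in untreated tumor PMN-MDSC (−3.35 ± 0.32 SE, edgeR adjusted p = 2.27e-05) and at 46.2, 86.3, 49.4 and 44.1 CPM in tumor M-MDSC (−3.58 ± 0.26 SE, edgeR adjusted p = 1.29e-06). In both fractions, every tumor library was below every spleen library. Spn stood at 27.3, 31.97, 29.97 and 28.9 CPM in tumor PMN-MDSC (−2.52 ± 0.15 SE, edgeR adjusted p = 1.76e-06) and 11.5, 49.2, 35.8 and 41.6 CPM in tumor M-MDSC (−2.49 ± 0.32 SE, edgeR adjusted p = 0.000132). Treml4 stood at 18.2, 36.8, 33.6 and 25.6 CPM in tumor PMN-MDSC (−1.64 ± 0.27 SE, edgeR adjusted p = 0.000493) and 17.6, 24.3, 21.4 and 6.30 CPM in tumor M-MDSC (−1.95 ± 0.31 SE, edgeR adjusted p = 0.000646). Neither Spn nor Treml4 overlapped between untreated spleen and tumor in either fraction. Cd300e was under the testing limit, with 2.43, 7.04, 1.60 and 3.32 CPM in tumor PMN-MDSC and 0, 4.72, 0.832 and 0 CPM in tumor M-MDSC, the latter from 10 counts in all.

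Further genes of the patrolling list were called in both directions between tumor and spleen. In untreated PMN-MDSC, Cx3cr1 (3.59 ± 0.41 SE, edgeR adjusted p = 5.74e-05), Cebpb and Dusp5 were higher in tumor and Adgre4, Itgal, Ceacam1 and Klf2 lower, out of 9 tested (median log2 fold change −0.33, against 0.01 over all genes tested). In untreated M-MDSC, Cebpb and Dusp5 (3.75 ± 0.36 SE, edgeR adjusted p = 2.12e-05) were higher and Adgre4, Itgal, Ceacam1, Klf2 and Gngt2 lower, out of 9. With treatment, 4 were higher and 3 lower in tumor PMN-MDSC, and Dusp5 was higher and Itgal lower in tumor M-MDSC. Of 7 tested genes of the classical list, 2 (Ccr2 and Fn1) were higher and 5 lower in untreated tumor PMN-MDSC (median −2.93, against 0.01). In untreated tumor M-MDSC, Fn1 was higher and Mgst1 and Plac8 were lower (median −0.22, against 0.02).

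**Figure D3:**
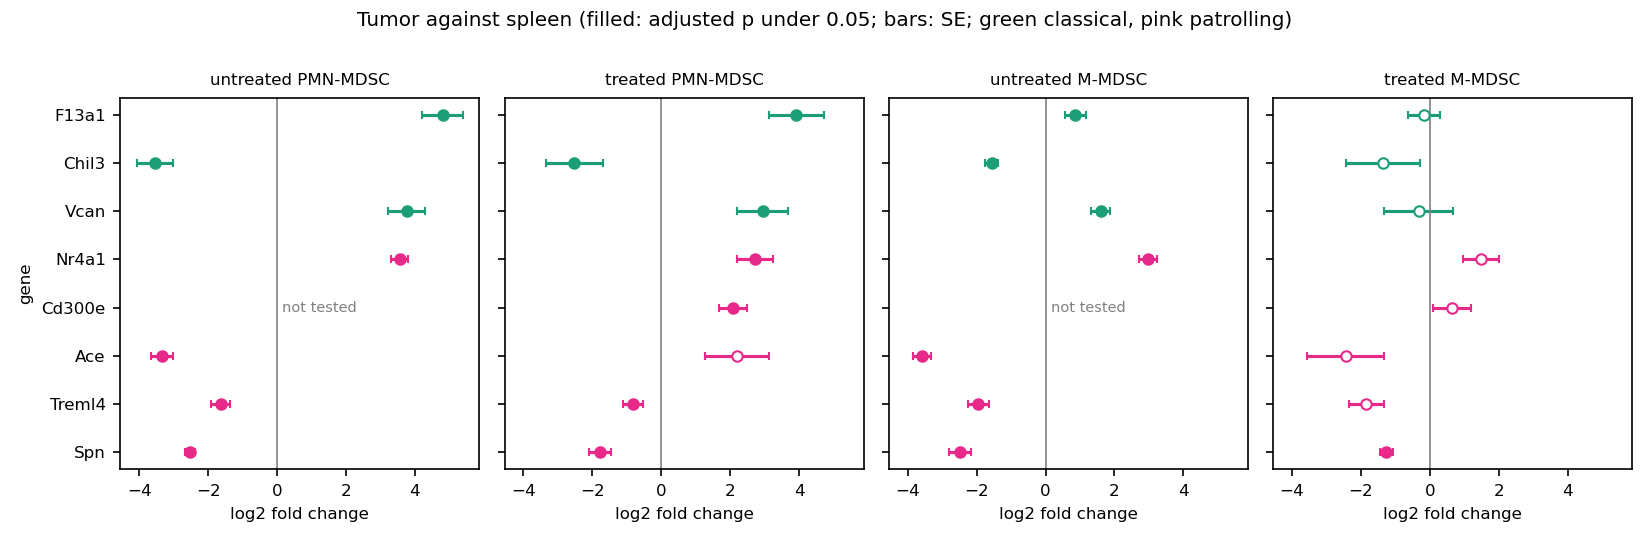
Log2 fold change of tumor against spleen (horizontal axis) for each gene (vertical axis) in 4 settings; points are edgeR estimates, bars 1 SE, filled points have an adjusted p under 0.05. In the panels of untreated mice F13a1, Vcan and Nr4a1 lie to the right of 0 and Chil3, Ace, Treml4 and Spn to the left.

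With treatment, the same split appeared in PMN-MDSC for all but Ace. There 7 of 8 members were called (53.6% of 8031 genes called), F13a1 (3.92 ± 0.80 SE, edgeR adjusted p = 0.00360), Vcan (2.94 ± 0.74 SE, edgeR adjusted p = 0.00969), Nr4a1 (2.73 ± 0.52 SE, edgeR adjusted p = 0.00268) and Cd300e (2.09 ± 0.41 SE, edgeR adjusted p = 0.00322) higher in tumor. F13a1, Vcan and Cd300e, as well as Ace, reached the count minimum only through the tumor libraries, since treated spleen PMN-MDSC held 71, 36, 38 and 29 counts of them in all. Chil3 (−2.53 ± 0.82 SE, edgeR adjusted p = 0.0289), Treml4 (−0.82 ± 0.29 SE, edgeR adjusted p = 0.0402) and Spn (−1.78 ± 0.33 SE, edgeR adjusted p = 0.00231) were lower. Ace was not called (2.19 ± 0.92 SE, edgeR adjusted p = 0.0720), although it was without tumor library 3 (log2 fold change 2.49, adjusted p 0.0487) or tumor library 4 (log2 fold change 2.60, adjusted p 0.0255). Chil3 lost its call without spleen library 1 or tumor library 1, 2 or 3 (adjusted p 0.0545 to 0.0986), and Treml4 without spleen library 2 or any 1 tumor library (adjusted p 0.0624 to 0.163). With no count minimum the calls of Chil3 (0.174) and F13a1 (0.0511) were lost. Ace was called by DESeq2 (0.0233), with no count minimum (0.0179) and over all 8 groups (0.0485).

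In treated M-MDSC, 1 of 8 members was called (5.97% of 9026 genes called). Spn was lower in tumor, at 127, 106 and 129 CPM against 308, 277, 372 and 266 CPM in spleen, without overlap (−1.26 ± 0.19 SE, edgeR adjusted p = 0.00882). Without the second tumor library, 2 members were called (4.29% of 8722 genes), Spn (−1.17 ± 0.21 SE, edgeR adjusted p = 0.0214) and Nr4a1 (1.93 ± 0.32 SE, edgeR adjusted p = 0.0159), the latter higher in tumor. With all libraries, the log2 fold change of Nr4a1 was 1.49 ± 0.53 (SE; edgeR adjusted p = 0.144). DESeq2 called Nr4a1 (0.0423) and Treml4 (0.00352) as well, as did edgeR with no count minimum and over all 8 groups, the latter with Ace (0.0347). In treated mice, 11 of 12 immediate early genes were higher in tumor PMN-MDSC and 10 of 11 tested in tumor M-MDSC (medians 4.90 and 4.80).

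Treatment with poly(I:C)c, which mimics viral RNA, was then compared with the untreated controls within each population. Cd300e rose in M-MDSC of both organs and in PMN-MDSC of tumors, Spn rose in M-MDSC of both organs, and Treml4 rose in M-MDSC of the spleen. Ace fell in PMN-MDSC of the spleen. Cd300e reached the count minimum in all 3 populations through the treated libraries in which it was high, since its untreated libraries held 40 counts in all in spleen M-MDSC, 28 in tumor PMN-MDSC and 10 in tumor M-MDSC. EdgeR called 0 classical genes in the 4 comparisons with all libraries, with 1 in spleen PMN-MDSC, 2 in tumor PMN-MDSC, 1 in spleen M-MDSC and 2 in tumor M-MDSC at an unadjusted p under 0.05. Over all genes tested, 1993 of 7261, 1508 of 8308, 2935 of 8827 and 1606 of 8360 reached that level, in the same order. In spleen PMN-MDSC, only 2 classical genes were tested. DESeq2 called Chil3 in PMN-MDSC of spleen (adjusted p = 0.0219) and tumor (0.00663), Vcan in PMN-MDSC of tumor (0.000441) and F13a1 in M-MDSC of tumor (0.00662). In edgeR, F13a1 and Vcan were lower and Chil3 higher in treated tumor M-MDSC once the second library was left out.

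In M-MDSC of the spleen, treatment was tested with 4 libraries on each side, and 3 of 8 members were called, all higher (19.4% of 8827 genes called). Cd300e stood at 5.27, 2.32, 5.38 and 2.86 CPM in untreated and 24.5, 26.5, 73.9 and 58.4 CPM in treated mice. Every treated library lay far above every untreated one, with a log2 fold change of 3.62 ± 0.46 (SE; edgeR adjusted p = 0.000847). Treml4 stood at 99.1, 58.5, 59.6 and 122 CPM in untreated and 233, 297, 266 and 155 CPM in treated mice, again without overlap (1.55 ± 0.28 SE, edgeR adjusted p = 0.00482). Spn rose least, from 197, 199.7, 222 and 286 CPM to 308, 277, 372 and 266 CPM with overlapping ranges (0.49 ± 0.15 SE, edgeR adjusted p = 0.0462). The call of Spn was lost without untreated library 1, 2 or 3 or treated library 1 or 3 (adjusted p 0.0808 to 0.129), and in the fit over all 8 groups (0.223).

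For Ace and Nr4a1, treated and untreated libraries of spleen M-MDSC overlapped. Ace was 534, 739.7, 753 and 202 CPM in treated mice (−0.47 ± 0.37 SE, edgeR adjusted p = 0.415), and Nr4a1 was 172, 224, 284 and 133 CPM, its log2 fold change being 0.07 ± 0.28 (SE; edgeR adjusted p = 0.893). The classical genes were not called either. Vcan stood at 624, 407, 325 and 361 CPM (−0.85 ± 0.33 SE, edgeR adjusted p = 0.103), F13a1 at 404, 448, 289 and 280.4 CPM (−0.59 ± 0.35 SE, edgeR adjusted p = 0.268) and Chil3 at 1739, 757, 1139 and 1785 CPM (0.42 ± 0.27 SE, edgeR adjusted p = 0.302). The median log2 fold change was 0.49 over the 5 patrolling and −0.59 over the 3 classical genes, against −0.03 over all genes tested.

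Other genes of either subset moved in both directions in spleen M-MDSC. Of 7 tested genes of the wider classical list, Ly6c2, which encodes the Ly6C antigen, rose (2.74 ± 0.21 SE, edgeR adjusted p = 4.27e-05) and Ccr2 (−2.75 ± 0.32 SE, edgeR adjusted p = 0.000550), Fn1 and Mgst1 fell. Of 10 tested genes of the wider patrolling list, Cebpb and Dusp5 (1.30 ± 0.28 SE, edgeR adjusted p = 0.00971) rose, whereas Cx3cr1, the fractalkine receptor of patrolling monocytes, fell (−2.82 ± 0.50 SE, edgeR adjusted p = 0.00555). The list medians were 0.27 and 0.49. The summed CPM of 5 endothelial markers was 29.7 to 39.3 in untreated and 131 to 295 in treated spleen M-MDSC, higher together with Cd300e. After treatment most of it was Kdr (0 to 6.43 against 85.8 to 272 CPM), while Cdh5 was at most 5.31 CPM. The macrophage markers summed to 860.4 to 1109.5 CPM in untreated and 376 to 769 CPM in treated mice, and the neutrophil markers to 4097 to 10326 and 1044 to 6251 CPM. Single macrophage markers went both ways, since C1qb, C1qc (1.25 ± 0.29 SE, edgeR adjusted p = 0.0156) and Mertk (2.39 ± 0.56 SE, edgeR adjusted p = 0.0180) rose beside Cd300e and Treml4, whereas Apoe (−2.06 ± 0.35 SE, edgeR adjusted p = 0.00349) and Mrc1 (−3.08 ± 0.52 SE, edgeR adjusted p = 0.00381) fell and Adgre1, C1qa and Vcam1 were not called. Their part in the changes of the members was not tested.

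In M-MDSC of tumors, 2 of 8 members were called with all 7 libraries, both higher (2.88% of 8360 genes called). Cd300e stood at 0, 4.72, 0.832 and 0 CPM in untreated libraries, from 0, 7, 3 and 0 counts, and at 20.2, 98.2 and 84.7 CPM in treated ones, so that the groups did not overlap (5.53 ± 0.87 SE, edgeR adjusted p = 0.0190). Spn stood at 11.5, 49.2, 35.8 and 41.6 CPM in untreated and 127, 106 and 129 CPM in treated libraries, also without overlap (1.74 ± 0.38 SE, edgeR adjusted p = 0.0461). Cd300e lost its call without untreated library 1, 3 or 4 or treated library 3 (adjusted p 0.0605 to 0.0793), and Spn without untreated library 2, 3 or 4 or treated library 1 or 3 (adjusted p 0.0554 to 0.131).

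The second treated library was the lowest of its group for all 6 remaining members, as it was for Spn. For Vcan the treated libraries held 728, 9.18 and 229.9 CPM, for F13a1 379.6, 92.03 and 427 CPM and for Chil3 853, 8.26 and 628 CPM, the second being the lowest each time. Ace (206, 2.30 and 83.6 CPM), Nr4a1 (852, 152 and 616 CPM) and Treml4 (69.1, 19.7 and 101 CPM) were also lowest in it. Only Cd300e, of all 8 members, was highest in it. With this library included, edgeR called none of these 6, with log2 fold changes of −2.75 ± 1.04 (SE; edgeR adjusted p = 0.189) for Vcan, −1.60 ± 0.46 (SE; edgeR adjusted p = 0.0915) for F13a1 and 1.71 ± 0.54 (SE; edgeR adjusted p = 0.122) for Treml4. DESeq2 called F13a1 (adjusted p = 0.00662) and Treml4 (0.0240) with all 7 libraries. The edgeR fit with no count minimum called F13a1 (2.38e-07), Treml4 (3.33e-06) and Nr4a1 (0.0279), and that over all 8 groups Treml4 (0.0112) and Vcan (0.0285).

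Without that library, 6 of 8 members were called between 2 treated and 4 untreated libraries (4.58% of 7860 genes called). Vcan (−2.16 ± 0.42 SE, edgeR adjusted p = 0.0243) and F13a1 (−1.16 ± 0.19 SE, edgeR adjusted p = 0.0126) were lower with treatment. Chil3 (1.25 ± 0.22 SE, edgeR adjusted p = 0.0184), Treml4 (2.14 ± 0.34 SE, edgeR adjusted p = 0.0122), Spn (1.85 ± 0.40 SE, edgeR adjusted p = 0.0345) and Cd300e (5.18 ± 0.87 SE, edgeR adjusted p = 0.0148) were higher. Ace (1.28 ± 0.37 SE, edgeR adjusted p = 0.0934) and Nr4a1 (−0.93 ± 0.30 SE, edgeR adjusted p = 0.130) were not called. With all libraries, the median log2 fold change was −1.60 over the classical and 1.71 over the patrolling genes, against −0.000366 over all genes tested. These medians are the values of F13a1 and Treml4, which edgeR did not call with all libraries. Chil3 (0.66) and Nr4a1 (−1.38), also not called, went against the medians of their classes.

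**Figure D4:**
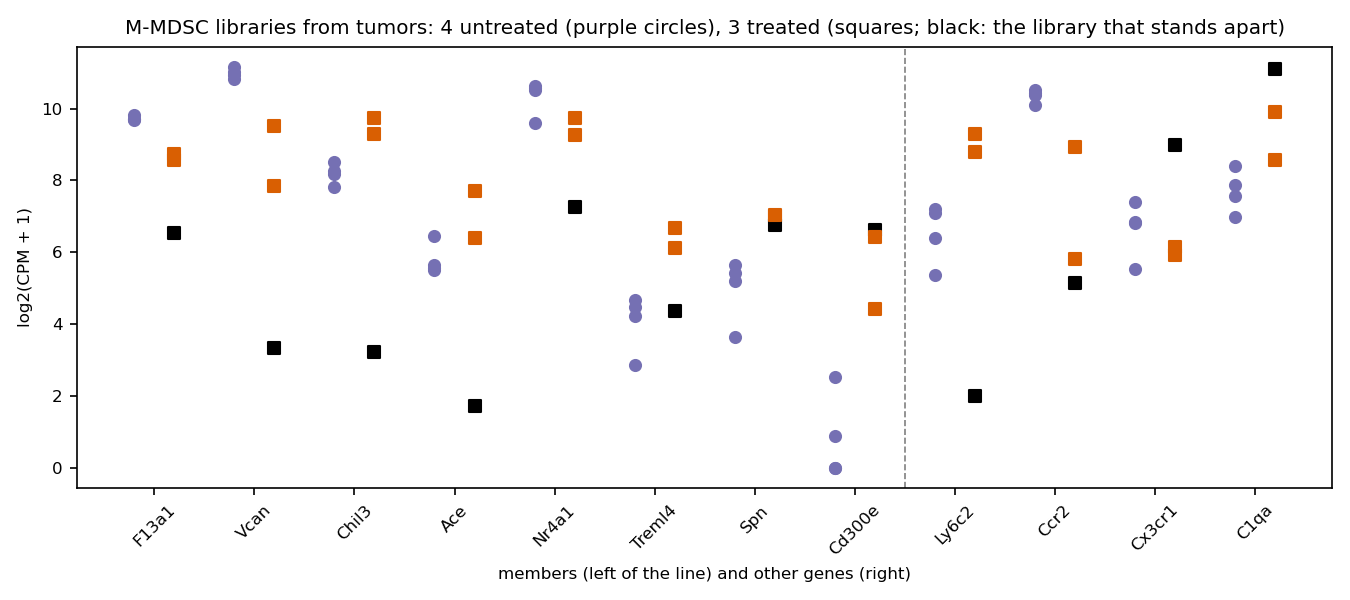
Level as log2(CPM + 1) (vertical axis) of the 8 genes and of Ly6c2, Ccr2, Cx3cr1 and C1qa (horizontal axis) in each M-MDSC library from tumors; circles are the 4 untreated and squares the 3 treated libraries, with the second treated library in black. The black squares are the lowest treated ones for 7 of the 8 genes, Cd300e being the exception, and the highest for Cx3cr1 and C1qa.

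In the same library, Cx3cr1 stood at 501 CPM, against 59.4 and 70.4 CPM in the remaining treated libraries, and the macrophage gene C1qa at 2192 CPM, against 125 to 334 CPM of C1qa in untreated tumor M-MDSC. The macrophage markers summed to 3463 to 8514 CPM over untreated and 5401 to 29637 CPM over treated libraries, and the endothelial markers to 20.2 to 45.8 and 75.8 to 159.7 CPM. Their part was not tested. Nr4a2 and Egr2 fell among the 12 immediate early genes (median log2 fold change −0.81). Of the wider lists, Fn1 fell (−2.97 ± 0.61 SE, edgeR adjusted p = 0.0383) among 7 tested classical genes, and Gngt2 rose (1.16 ± 0.20 SE, edgeR adjusted p = 0.0235) among 9 tested patrolling genes. Without the second library, Ly6c2, Adgre4 and Gngt2 rose and Fn1 fell.

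In PMN-MDSC of tumors, 1 of 8 members was called (3.36% of 8308 genes called). Cd300e rose from 2.43, 7.04, 1.60 and 3.32 CPM to 39.98, 47.1, 20.98 and 16.4 CPM, without overlap (3.07 ± 0.46 SE, edgeR adjusted p = 0.00393). Chil3 (266, 531, 122 and 1086 CPM in treated mice, 2.86 ± 0.73 SE, edgeR adjusted p = 0.0806), Vcan (98.03, 84.99, 27.4 and 14.2 CPM, −2.10 ± 0.52 SE, edgeR adjusted p = 0.0673), Nr4a1 (507, 650.2, 1008 and 894 CPM, −0.84 ± 0.27 SE, edgeR adjusted p = 0.132) and Spn (76.4, 64.9, 33.3 and 38.3 CPM, 0.81 ± 0.24 SE, edgeR adjusted p = 0.1001) were not called by edgeR, though none of these 4 overlapped between treated and untreated mice. The share of all genes without overlap was not computed, and 1508 of 8308 had an unadjusted p under 0.05 in edgeR. DESeq2 called all 4 of them (adjusted p 0.00663 for Chil3, 0.000441 for Vcan, 0.0370 for Nr4a1 and 0.0441 for Spn), and 613 of 8305 genes in all. The fit with no count minimum called Nr4a1 (0.00432) and Spn (0.0159), and that over all 8 groups Chil3 (0.0410). Without treated library 3, Chil3 (log2 fold change 3.18, edgeR adjusted p = 0.0320) and Spn (log2 fold change 0.96, adjusted p 0.0354) were called.

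Ace was the most uneven gene of this group, at 67.6, 29.7, 7.30 and 4.31 CPM over the treated libraries. Libraries 1 and 2, the higher ones for Ace, were also the higher ones for Vcan, Cd300e and Spn. F13a1 stood at 279.8, 163, 118 and 209.7 CPM, highest in libraries 1 and 4. Treml4 stood at 46.8, 33.4, 31.5 and 32.3 CPM, and for Ace, Treml4 and F13a1 the treated libraries overlapped the untreated ones (log2 fold changes 0.73, 0.30 and −0.54). The class medians were −0.54 (classical) and 0.73 (patrolling), the values of F13a1 and Ace, against 0.01 over all genes tested. Among the called genes of the wider classical list, Ly6c2 (4.53 ± 0.57 SE, edgeR adjusted p = 0.00247) and Plac8 rose and Ccr2 and Fn1 (−2.90 ± 0.42 SE, edgeR adjusted p = 0.00337) fell. Of the 12 immediate early genes, Nr4a3 and Egr2 fell beside the lower values of Nr4a1 (median −0.33). Of 9 tested genes of the wider patrolling list, edgeR called 0, with 3 at an unadjusted p under 0.05 (1508 of 8308 over all genes) and 1 called by DESeq2. The macrophage markers summed to 10156 to 13647 CPM in untreated and 7746 to 19266 CPM in treated mice, with the neutrophil markers at 1069 to 4521 and 4091 to 10333 CPM, and their part was not tested.

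In PMN-MDSC of the spleen, 1 of 6 tested members was called (11.6% of 7261 genes called). Ace fell from 235, 158, 88.8 and 103 CPM in untreated to 5.76, 5.20 and 2.16 CPM in treated mice, and the groups lay far apart (−4.80 ± 0.51 SE, edgeR adjusted p = 0.00235). It reached the count minimum through the untreated libraries, with 1783 counts in all against 29 in treated ones. Chil3 varied from 572 to 4231 CPM over the 3 treated libraries (4231, 572 and 2016) and was not called (1.87 ± 0.66 SE, edgeR adjusted p = 0.105), except by DESeq2 or without treated library 2 (log2 fold change 2.32, adjusted p 0.0490). Vcan (8.32, 1.86 and 6.48 CPM), Nr4a1 (30.1, 92.1 and 138 CPM), Treml4 (34.6, 66.1 and 38.5 CPM) and Spn (185, 82.8 and 141 CPM) overlapped their untreated levels. F13a1 (7.04, 0.371 and 21.2 CPM) and Cd300e (10.6, 12.5, 3.73 and 9.63 CPM untreated, 4.48, 5.94 and 5.40 CPM treated) were under the testing limit. Here the class medians lay the other way than in M-MDSC, at 0.32 over 2 tested classical and −0.25 over 4 tested patrolling genes. Over all genes tested the median was 0.01.

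Other genes fell beside Ace in these libraries, Fos, Fosb and Atf3 among 8 tested immediate early genes. Of 9 tested genes of the wider patrolling list, Cx3cr1 (−4.25 ± 0.86 SE, edgeR adjusted p = 0.0183), Adgre4 and Gngt2 (−1.85 ± 0.22 SE, edgeR adjusted p = 0.00303) fell and Cebpb rose. Of 7 tested classical ones, Ccr2 fell and Ly6c2 (4.01 ± 0.35 SE, edgeR adjusted p = 0.00126), Hp and Plac8 (2.85 ± 0.43 SE, edgeR adjusted p = 0.00657) rose. The macrophage markers summed to 529 to 1728 CPM in untreated and 74.5 to 202 CPM in treated mice, the dendritic cell markers to 30.1 to 78.3 and 0.640 to 4.46 CPM, with Siglech at 0 in both and Flt3 and Xcr1 at 0 after treatment, and the erythroid markers to 56.9 to 158 and 0.360 to 6.40 CPM. The part of such cells in the fall of Ace was not tested.

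**Figure D5:**
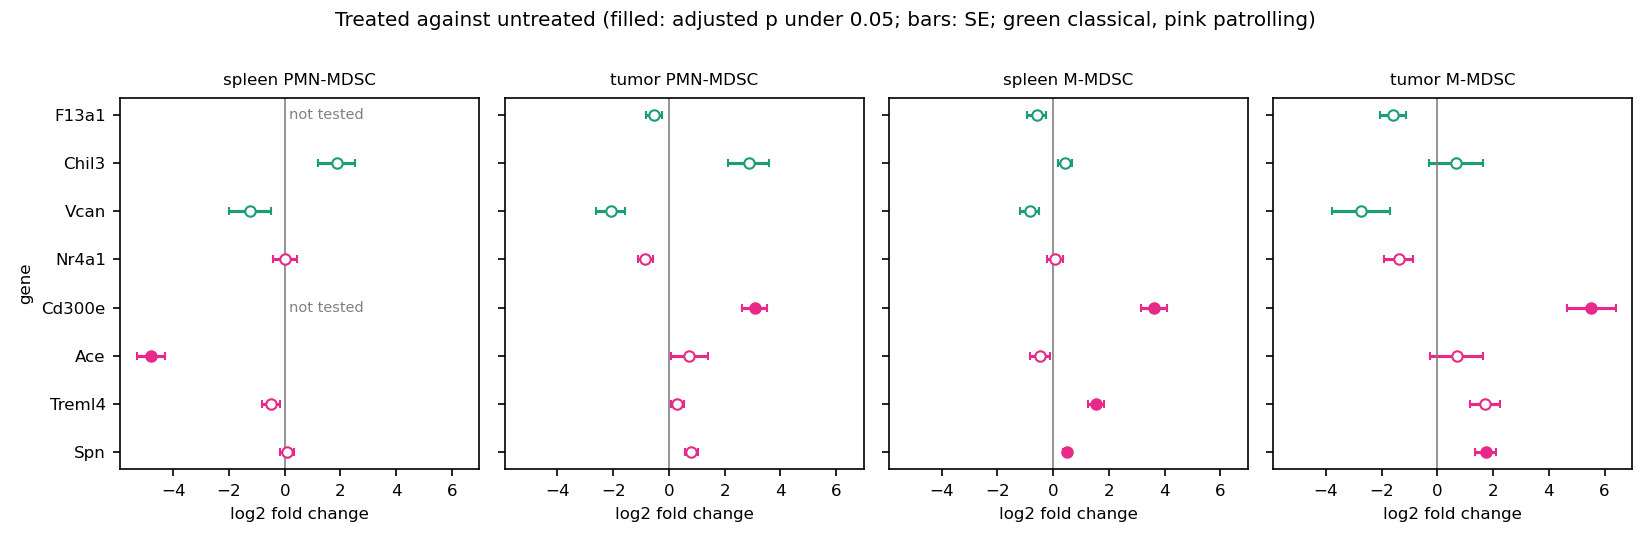
Log2 fold change of treated against untreated mice (horizontal axis) for each gene (vertical axis) in the 4 sorted populations; points are edgeR estimates, bars 1 SE, filled points have an adjusted p under 0.05. Cd300e is filled and to the right of 0 in 3 panels, Ace is filled and to the left in spleen PMN-MDSC, and no classical gene is filled.

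Whether treatment acted differently in tumor and spleen was tested by an interaction term. In PMN-MDSC, 2 of 8 members were called (3.50% of 8047 genes called). The treatment effect on Ace was higher in tumor by 5.56 ± 0.96 (SE; edgeR adjusted p = 0.00890) on the log2 scale, and that on Cd300e by 3.56 ± 0.70 (SE; edgeR adjusted p = 0.0154). For Ace this set the fall in spleen against a value of 0.73 in tumor, and for Cd300e the rise in tumor against 4.48 to 5.94 CPM in treated and 3.73 to 12.5 CPM in untreated spleen. Cd300e reached the count minimum of this fit through treated tumor PMN-MDSC, with 368 counts in all, against 28 in untreated tumor, 38 in treated spleen and 106 in untreated spleen, so it entered the test only because it was high there. The call of Cd300e was lost without treated spleen library 3 (log2 difference 3.52, edgeR adjusted p = 0.0529).

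In M-MDSC, edgeR called 0 of 8 members for this interaction (0.790% of 8730 genes called), with Nr4a1 and Spn at an unadjusted p under 0.05 and 0 called by DESeq2. An unadjusted p under 0.05 was reached by 1238 of the 8730 genes. With no count minimum, edgeR called 5 members (adjusted p 1.67e-06 for Vcan, 0.000518 for Nr4a1, 0.00656 for Spn, 0.0202 for Ace and 0.0220 for Cd300e). With the count minimum, the difference for Cd300e was 1.94 ± 1.10 (SE; edgeR adjusted p = 0.449) and that for Spn 1.26 ± 0.40 (SE; edgeR adjusted p = 0.155). Without the second treated tumor library, 0 members were called (0.549% of 8554 genes).

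Ordered by mean CPM over the 9 groups, neighbouring groups overlapped for most genes. Vcan was highest in untreated tumor M-MDSC (2032 ± 196 CPM, SD, n = 4), clear of untreated spleen M-MDSC (795 ± 364 CPM). F13a1 was highest in the same group (851 ± 39.7 CPM) but overlapped the next. Treml4 was highest in treated spleen M-MDSC (238 ± 61.03 CPM), clear of the next group (84.9 ± 31.3 CPM). Spn led in the same group (306 ± 47.8 CPM), Ace in untreated spleen M-MDSC (811 ± 240.2 CPM) and Chil3 in treated spleen PMN-MDSC (2273 ± 1843 CPM, n = 3), each overlapping the next. Nr4a1 did not separate untreated tumor PMN-MDSC (1373 ± 279 CPM) from untreated tumor M-MDSC (1331 ± 371 CPM). For Cd300e the 3 highest groups, all treated, overlapped one another and none of the groups below.

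Per kilobase of exon, the genes differed widely in level. In untreated spleen M-MDSC, Chil3 was at 642 ± 152 FPKM (CPM divided by the exon length in kilobases; SD, n = 4), Ace at 153 ± 45.4, F13a1 at 82.4 ± 45.6, Nr4a1 at 57.7 ± 16.9, Vcan at 54.9 ± 25.1, Spn at 48.3 ± 8.83, Treml4 at 42.5 ± 15.7 and Cd300e at 1.90 ± 0.764. Every patrolling gene but Cd300e was within the range of F13a1 and Vcan or above it in these Ly6C-high cells, allowing for the SD. With treatment Cd300e reached 21.9 ± 11.7 FPKM.

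Across the 30 MDSC libraries, Pearson's r of log2(CPM + 1) was highest, among 8536 genes, with Dbi and Mrpl52 for F13a1 (0.951 and 0.951), Itga1 and Jarid2 for Vcan (0.949 and 0.935) and I830127L07Rik and Gpr141 for Chil3 (0.901 and 0.897). For the patrolling genes it was highest with Dot1l and Sh2b2 for Nr4a1 (0.935 and 0.929), Vamp8 and Nr1h3 for Cd300e (0.873 and 0.836), Fam69a and Dpp4 for Ace (0.926 and 0.909), Spic and Napg for Treml4 (0.874 and 0.863) and Zbtb7a and Arhgap27 for Spn (0.918 and 0.892). Among the members, F13a1 with Vcan had the highest r (0.889) and Nr4a1 with Spn the lowest (−0.772). These libraries share groups, so r describes likeness over groups rather than between animals, and no test was made.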

How the data were processed

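RNA of sorted cells and bulk tumor was made into strand-specific libraries with 13 PCR cycles and no molecular identifiers, so floors of 3 counts cover counting error only. The authors mapped reads to GRCm38 with ContextMap and BWA and counted fragments per gene with featureCounts (Subread 1.4.6-p3, Gencode annotation), and they deposited raw counts for 35 libraries. The column of 1 treated tumor M-MDSC library, with 10 counts, was left out. CPM was computed from the total of each library and FPKM from the exon bases of each gene (GENCODE M21 on GRCm38), which also gave symbols and positions. Per comparison, genes averaging 25 counts or more were tested with edgeR 4.0.16 (quasi-likelihood F-test, TMM scaling, R 4.3.3, limma 3.58.1), adjusted by Benjamini-Hochberg over all genes tested and called at an adjusted p under 0.05. The interaction was fitted over 4 groups. DESeq2 1.42.0, RLE scaling, no count minimum, a single fit over all 8 MDSC groups, the study's threshold (adjusted p under 0.001 and at least 2-fold) and leaving out each library were tried. The fits were tested on simulated data with 200 changed genes. P-values measure only the spread between these libraries. Described in the text were all 8 members, the 2 genes most correlated with each, the paralog Chil4 and, per treatment comparison, values of up to 2 called genes of each list with the smallest adjusted p. Fos, Pf4, Kdr, Cdh5, C1qa, C1qb, C1qc, Mertk, Apoe, Mrc1 and further single marker genes were chosen after their values were seen. The members and lists were chosen with earlier results of these data known. Promoter sequences are from RefSeq. Of the wider classical list, 1 gene is not reported here by name.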

Additional observations from a re-analysis of the deposited data

Results flagged for a closer look

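Single libraries stood apart in 5 of 56 group and gene combinations with 4 libraries, by the gap to the nearest library relative to the range (Dixon's 95% critical value), where chance gives about 1 in 20, or 2.80. F13a1 reached 1013 CPM in untreated spleen M-MDSC library 2, above its 3 companions (359 to 435 CPM). In untreated tumor M-MDSC, the highest F13a1 library was at 909.8 CPM, the lowest Nr4a1 library at 778 CPM and the highest Ace library at 86.3 CPM. Treml4 reached 46.8 CPM in library 1 of treated tumor PMN-MDSC.

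The treatment effect in PMN-MDSC differed between tumor and spleen for Cd300e by 3.56 and for Ace by 5.56 on the log2 scale, each past the threshold of the edgeR interaction test (adjusted p 0.0154 and 0.00890). Cd300e passed the count minimum of that test only through the treated tumor libraries, in which it was high. Cd300e was higher in 4 of 4 treated tumor libraries than in any untreated one, and Ace lower in 3 of 3 treated spleen libraries.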

How the results depend on the processing

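No paired analysis was possible because the columns carry a running number that the labels do not tie to their mouse numbers. Libraries that came from the same mouse therefore entered the fits as independent. Of 43 called member values, DESeq2 called 43, RLE scaling 42, no count minimum 41 and the fit over all 8 MDSC groups 36, and 36 kept their call whichever library was left out. Of 106 fitted values, 15 changed sign under some setting, 0 of them called, and the largest was 1.17 (log2). RLE scaling moved the median of all genes by at most 0.0722. TMM scaling moved 3 of 72 mean levels by more than 1 SD. The causes were not tested.

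Counts of members called that changed by more than 1.5 times were as follows. Below that size, the fit over all 8 groups lost Spn for treatment in spleen M-MDSC. With DESeq2 the treatment counts were 2 in spleen PMN-MDSC, 5 in tumor PMN-MDSC and 4 in tumor M-MDSC (main 1, 1 and 2), tumor against spleen in treated M-MDSC gave 3 (main 1), and M-MDSC against PMN-MDSC in treated tumor gave 1 (main 0). Over all genes, DESeq2 called 1354 of 7231, 613 of 8305, 797 of 8346, 1132 of 8966 and 302 of 8942, in the same order. The main fit called 844 of 7261, 279 of 8308, 241 of 8360, 539 of 9026 and 33 of 8955. With no count minimum the counts of members were 3 in tumor PMN-MDSC and 5 in tumor M-MDSC for treatment, 3 for tumor against spleen in treated M-MDSC, 5 and 2 for M-MDSC against PMN-MDSC in untreated spleen (main 3) and treated tumor, and 5 for the M-MDSC interaction (main 0). Over all genes, that fit called 864 of 29685, 1064 of 25966, 1972 of 27310, 7562 of 28696, 637 of 28663 and 659 of 29825. The fit over all 8 groups gave 2 in tumor PMN-MDSC and 4 in tumor M-MDSC for treatment, 4 in untreated (main 7) and 4 in treated M-MDSC for tumor against spleen, and 1 in untreated (main 4) and 2 in treated tumor for M-MDSC against PMN-MDSC. It called 312 of 8308, 768 of 8360, 1748 of 8298, 1292 of 9026, 613 of 7623 and 454 of 8955 genes there. The study's threshold gave 0 for treatment in spleen PMN-MDSC, tumor PMN-MDSC and tumor M-MDSC, 1 in spleen M-MDSC (main 3), 0 for tumor against spleen in treated PMN-MDSC (main 7) and treated M-MDSC, 2 for M-MDSC against PMN-MDSC in treated spleen (main 5) and 0 for the PMN-MDSC interaction (main 2). Over all genes tested in the main fit, 3, 20, 1, 220, 1045, 14, 1728 and 0 passed it in these comparisons.

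Leaving out 1 library, treatment called 1 to 2 members in spleen PMN-MDSC, 1 to 3 in tumor PMN-MDSC, 2 to 3 in spleen M-MDSC and 0 to 6 in tumor M-MDSC. Tumor against spleen called 7 to 7 in untreated PMN-MDSC, 5 to 7 in treated PMN-MDSC, 6 to 7 in untreated M-MDSC and 1 to 2 in treated M-MDSC. M-MDSC against PMN-MDSC called 3 to 4 in untreated spleen, 5 to 6 in treated spleen, 4 to 4 in untreated tumor and 0 to 0 in treated tumor, and the interactions 1 to 2 in PMN-MDSC and 0 to 0 in M-MDSC. A group left with 2 libraries leans on the spread of the other group. Depth limited Cd300e most, with 10 counts over 4 untreated tumor M-MDSC libraries.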
